A study of Mus musculus with 28 samples.

Results

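Cxcl9, Cxcl10 and Cxcl11 encode the 3 chemokines that bind the receptor CXCR3. They were taken by symbol from a table of 40021 genes measured by mRNA sequencing in retinal microglia, and all 3 were listed there and passed the filter on low values. The cells came from heterozygous male Cx3cr1CreER:R26-tdTomato mice on a C57BL/6 background, in which tamoxifen switches on the red fluorescent protein tdTomato in cells that use the Cx3cr1 promoter. Every group carried both alleles and had topical tamoxifen for 3 days at 4 to 5 weeks of age. Endotoxin-induced uveitis (EIU) was started 4 weeks later with 10 ng of lipopolysaccharide (LPS) injected into the vitreous, and about 600 live tdTomato-high cells were sorted from each single retina. The 28 libraries were 10 naïve retinas (no injection), 6 at 4 h (early activation), 5 at 18 h (peak cellular infiltrate) and 7 at 2 weeks (resolution). There was no group injected with vehicle, so LPS and the injection itself cannot be told apart.

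CXCR3 ligands are small secreted proteins that attract activated T cells and natural killer (NK) cells, the main cells that carry CXCR3. The 3 genes are classed as interferon-inducible. Cxcl9 is known chiefly as a target of interferon-gamma, whereas Cxcl10 also responds directly to interferon regulatory factors and NF-kappa B downstream of the LPS receptor TLR4. In uveitis these chemokines are known as products of retinal and infiltrating cells. The C57BL/6 allele of Cxcl11 is known to have a disrupted reading frame, so its mRNA does not stand for a secreted ligand in these mice.

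The genes lie side by side on the minus strand of chromosome 5 (GENCODE vM21, GRCm38, the assembly that mm10 names). Cxcl9 (ENSMUSG00000029417) spans chr5:92321347-92328079 and has up to 4 exons. Cxcl10 (ENSMUSG00000034855) spans chr5:92346638-92348889, also with up to 4 exons, and its start lies 20810 bases from that of Cxcl9. Cxcl11 (ENSMUSG00000060183) spans chr5:92359544-92365485, with up to 5 exons, and is annotated as a polymorphic pseudogene rather than as protein coding. Its start is 16596 bases from that of Cxcl10.

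The promoters of Cxcl9 and Cxcl10 are shown because the lists below follow the NF-kappa B and interferon pathways that act on them. They are the 250 bases before each start from RefSeq (GRCm38.p6, minus strand, 5′ to 3′), with matches to any searched motif in capitals. Both strands were searched for the interferon-stimulated response element core (GAAANNGAA), the gamma-activated site (TTCNNNGAA), an NF-kappa B core (GGNNTTTCC) and the TATA box (TATAAA). The Cxcl9 stretch is chr5:92328080-92328329 and the Cxcl10 stretch is chr5:92348890-92349139.
Cxcl9: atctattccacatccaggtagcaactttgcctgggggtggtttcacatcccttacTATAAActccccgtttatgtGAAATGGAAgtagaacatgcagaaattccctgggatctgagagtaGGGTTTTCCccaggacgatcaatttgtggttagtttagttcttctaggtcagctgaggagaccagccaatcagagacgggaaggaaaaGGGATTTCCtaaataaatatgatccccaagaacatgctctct
Cxcl10: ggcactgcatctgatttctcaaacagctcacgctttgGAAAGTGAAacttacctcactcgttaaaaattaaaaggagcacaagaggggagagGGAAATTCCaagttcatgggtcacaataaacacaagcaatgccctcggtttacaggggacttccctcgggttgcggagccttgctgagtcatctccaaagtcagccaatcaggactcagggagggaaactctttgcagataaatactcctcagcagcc
Both stretches held 1 interferon-stimulated response element core, 175 to 167 bases before the start in Cxcl9 and 213 to 205 bases before it in Cxcl10. The NF-kappa B core matched at 2 places in Cxcl9 (bases 130 to 122 and 42 to 34 before the start) and at 1 place in Cxcl10 (bases 158 to 150, on the opposite strand). Only exact matches were counted, so a near match such as gggacttcc in Cxcl10 stays in small letters. The 2 counts depend on the letters searched. Cxcl9 also held 1 match to the letters TATAAA, at 195 to 190 bases before the start, named by its letters and not by its place. Neither stretch held the letters of the gamma-activated site, and interferon-gamma elements with other letters were not searched for. No matches overlapped. Of 32851 RefSeq promoters of the same length, 7.13% held the interferon core, 4.93% the NF-kappa B core, 7.02% the gamma-activated site and 12.4% the TATA box, and 0.295% held both the interferon and the NF-kappa B core. A match is a run of letters and not a measured binding site.

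Levels are in RPKM, in which reads are scaled to transcript length and library depth, a unit per length that lets genes be set beside each other. Libraries held 7510000 to 19700000 alignments. For transcripts of these lengths 1 read was then worth about 0.0176 to 0.0461 RPKM for Cxcl9, 0.0228 to 0.0597 for Cxcl10 and 0.0134 to 0.0351 for Cxcl11, counting the longest annotated transcript. The labels do not say which retinas share a mouse, so p-values measure the spread between retinas. All 12 microglia markers reached 1 RPKM in some retina of every group. Their summed level ran from 8402 to 14359 RPKM in naïve retinas, 2215 to 7323 at 4 h, 3993 to 6583 at 18 h and 9009 to 14441 at 2 weeks, and limma called 5 of the 12 lower at 4 h and 8 at 18 h. Rod photoreceptor markers were also present in all groups (1785 to 7043 RPKM summed). Müller glia and astrocyte markers summed to 273 to 4981 RPKM in naïve retinas and 927 to 2412 at 4 h. At later times they summed to 157 to 1765 RPKM (18 h) and 970 to 10140 RPKM (2 weeks). The part of either list in the results was not tested.

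In naïve microglia Cxcl10 was the member most often detected. Its naïve level ran from 0 to 40.6 RPKM with a median of 1.13, and 2 of the 10 retinas were listed at 0. Naïve Cxcl9 was listed at 0 in 7 of 10 retinas and reached at most 0.279 RPKM, the worth of about 12.3 reads. Naïve Cxcl11 was likewise listed at 0 in 7 of 10, with a highest value of 0.323 RPKM. A listed 0 can stand for a failed estimate, although none of the 7 housekeeping genes examined had one. Naïve Cxcl10 therefore differed widely between retinas, with values of 14.9, 26.3 and 40.6 RPKM in 3 of them, while the other members stayed at or below the worth of about 15.3 reads.

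At 4 h all 3 ligands rose, and they did so from very different levels. Cxcl10 measured 1495, 1353, 1219, 2566, 1271 and 1434 RPKM in the 6 retinas. Cxcl11 measured 3.32, 12.2, 9.73, 8.67, 3.87 and 4.56 RPKM. Cxcl9 measured 1.24, 6.73, 6.77, 10.9, 7.56 and 0.372 RPKM. Every 4 h retina lay above every naïve retina for each gene. No share of all genes that separate in this way is set beside it, so the separation is a description only. Cxcl10 made up 98.6% to 99.7% of the summed RPKM of the 3 genes.

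The test was limma on log2(RPKM + 1) over 13164 genes and all 28 retinas, with Benjamini-Hochberg adjustment, and a gene was called at an adjusted p of 0.05 or less with a fold change of at least 2. Cxcl10 rose by 8.51 log2 units (SE 0.79, adjusted p = 2.71e-09), the 7th largest increase of the genes tested. Cxcl11 rose by 2.80 (SE 0.23, adjusted p = 1.9e-10) and Cxcl9 by 2.32 (SE 0.44, adjusted p = 0.000442), which ranked 140 and 206. On this scale the added 1 RPKM understates the change of the less abundant members. Over all genes, 485 of the 13164 were called higher (3.68%). Cxcl11 reached 1 RPKM in the 6 retinas at 4 h and in 1 at 18 h, so it passed the filter through the group in which it is high, had to differ there, and is not counted against that share.

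**Figure D1:**
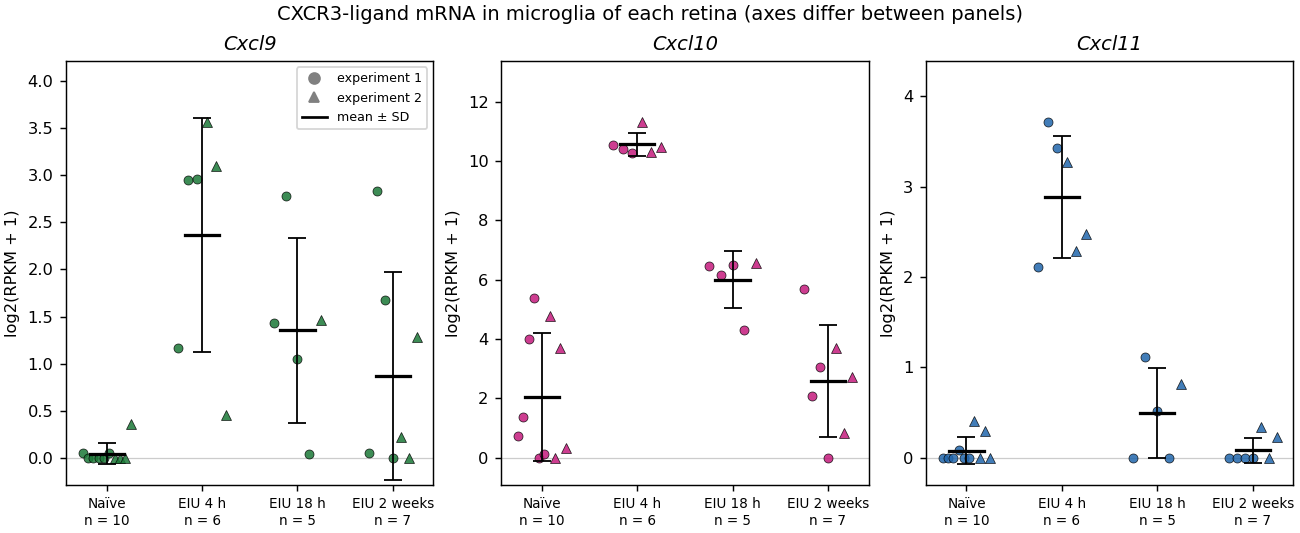
Level of each ligand mRNA in every retina as log2(RPKM + 1), with circles for experiment 1, triangles for experiment 2 and bars for the mean and SD of each group (naïve n = 10, 4 h n = 6, 18 h n = 5, 2 weeks n = 7). The vertical axes differ between panels: Cxcl10 reaches 1219 to 2566 RPKM at 4 h, whereas Cxcl9 and Cxcl11 stay at or below 12.2 RPKM.

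The spread between retinas at 4 h differed among the members. The highest Cxcl10 value was 2.1 times the lowest, against 3.66 times for Cxcl11 and 29.2 times for Cxcl9. Retinas 1 and 6 gave the low Cxcl9 values of 1.24 and 0.372 RPKM while their Cxcl10 was 1495 and 1434 RPKM, within the range of the other retinas. The 4 h retinas with low Cxcl9 were 1 of each experiment. Low Cxcl9 thus occurred beside Cxcl10 in the usual 4 h range. The T cell and NK cell marker sums of retinas 1 and 6 were 5.46 and 0.615 RPKM, inside the 4 h range of 0.0206 to 5.68.

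At 18 h Cxcl10 remained higher than in naïve retinas, and the other members were no longer called. Cxcl10 measured 87.2, 70.9, 89.4, 18.7 and 93.7 RPKM. Cxcl9 measured 1.69, 5.88, 1.06, 0.0292 and 1.76 RPKM. Cxcl11 was listed at 0 in retinas 1 and 4 and measured 1.17, 0.436 and 0.767 RPKM in retinas 2, 3 and 5. Retinas above every naïve retina numbered 4 of 5 for Cxcl10, 4 of 5 for Cxcl9 and 3 of 5 for Cxcl11. Retina 4 gave the lowest value of each ligand, tied at 0 with retina 1 for Cxcl11, and its Cxcl10 fell inside the naïve range.

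Relative to naïve, Cxcl10 was higher by 3.95 log2 units at 18 h (SE 0.84, limma adjusted p = 0.00354). The estimate for Cxcl9 was 1.31 (95% CI 0.36 to 2.26, adjusted p = 0.11) and that for Cxcl11 was 0.41 (95% CI -0.09 to 0.92, adjusted p = 0.402). The call for 1 of the 3 members stood beside 374 of 13164 genes called higher at 18 h (2.84%). Cxcl9 passed the threshold without retina 4 of the 18 h group (1.64, adjusted p = 0.0438), so this retina decides its side of the threshold. Within experiment 1 the Cxcl10 change was of like size (3.92) but not called (adjusted p = 0.0596), and in experiment 2, with 1 retina at 18 h and its spread assumed from the other groups, it was 4.36.

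Between 4 h and 18 h Cxcl10 and Cxcl11 fell. Cxcl10 dropped by 4.56 log2 units (SE 0.93, limma adjusted p = 0.00195), and its mean at 18 h was 4.62% of its mean at 4 h. Cxcl11 dropped by 2.39 (SE 0.27), to 6.73% of its 4 h mean, and since it had passed the filter only through the 4 h retinas its call is no separate support. All 5 retinas at 18 h lay below all 6 at 4 h for both genes, which is likewise given without a share over all genes. For Cxcl9 the difference was -1.01 (95% CI -2.06 to 0.04, adjusted p = 0.333), the 18 h mean was 37.3% of the 4 h mean, and the groups overlapped. Over all genes, 330 of 13164 were called lower (2.51%), and Cxcl10 is the member whose call did not rest on the filter.

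**Figure D2:**
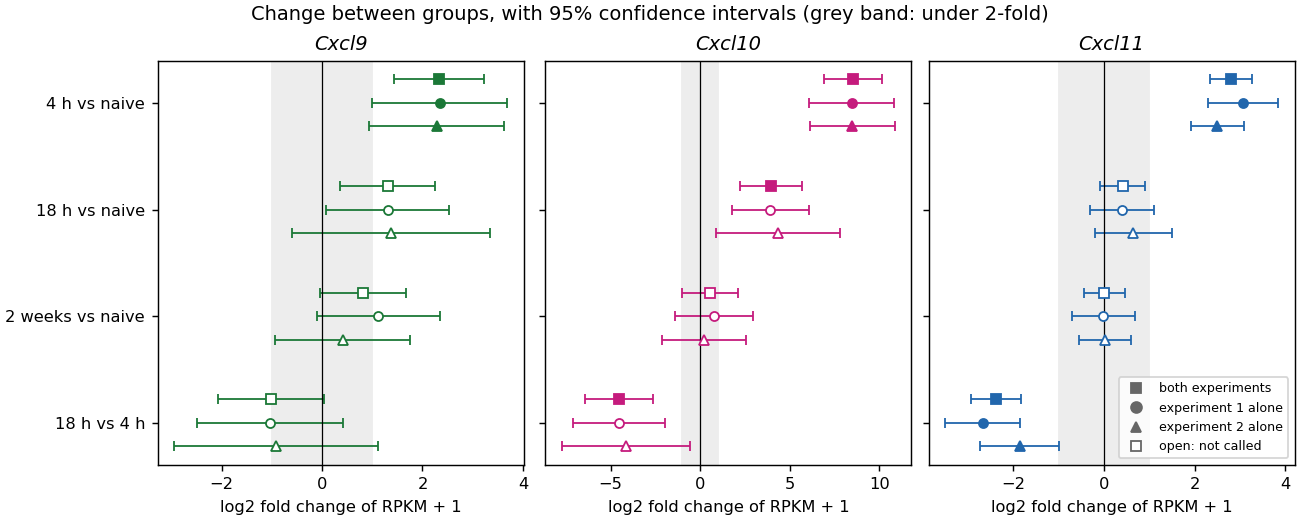
Change of each ligand in 4 comparisons as the log2 fold change of RPKM + 1 with its 95% confidence interval, for both experiments (squares), experiment 1 alone (circles) and experiment 2 alone (triangles). Filled symbols were called and the grey band marks changes under 2-fold. The 4 h changes are filled in every row, whereas the 18 h change of Cxcl10 is filled only with both experiments together.

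Whether the members changed by unequal amounts between 4 h and 18 h was tested on the log2 ratio of 2 members in each retina, with 1 RPKM added to each. The log2 ratio of Cxcl9 to Cxcl10 went from -8.19 ± 1.21 (SD, n = 6) at 4 h to -4.65 ± 0.83 (SD, n = 5) at 18 h, and every 18 h retina was above every 4 h retina. This difference of 3.54 had an adjusted p of 0.00649 in a two-sided exact permutation test over 462 arrangements, adjusted over the 3 pairs. The unadjusted p of 0.00433 is the smallest that this design can give. The ratio of Cxcl11 to Cxcl10 went from -7.67 ± 0.73 to -5.51 ± 0.85 (difference 2.17, exact permutation adjusted p = 0.00649), also without overlap. That of Cxcl9 to Cxcl11 went from -0.51 ± 0.99 to 0.86 ± 0.67 (difference 1.38, exact permutation adjusted p = 0.0303), with 2 of 5 retinas at 18 h above all at 4 h.

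Cxcl9 thus retained more of its 4 h level than Cxcl10 did, on this scale. The added 1 RPKM weighs on the less abundant members, since it sets a floor under them. With 0.1 RPKM added, the Cxcl9 to Cxcl10 difference was 3.02 (exact permutation adjusted p = 0.013), whereas that of Cxcl11 to Cxcl10 shrank to 0.43 (adjusted p = 0.554) and was no longer called. The Cxcl9 to Cxcl11 difference lost its call with 10 RPKM added (0.34, adjusted p = 0.0779) and without any 1 of retinas 1, 2, 3 or 6 at 4 h or retinas 1 or 2 at 18 h (adjusted p = 0.0556 or 0.0667). As a share of the summed RPKM of the 3 genes, Cxcl9 ranged from 0.0259% to 0.589% at 4 h and from 0.156% to 7.55% at 18 h.

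**Figure D3:**
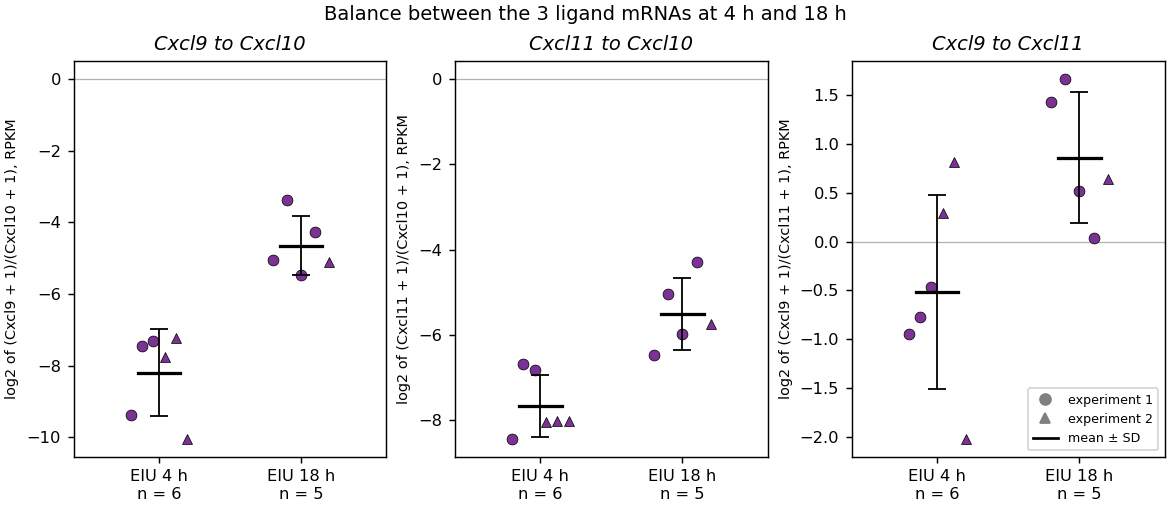
Log2 ratio of pairs of ligand mRNAs in each retina at 4 h (n = 6) and 18 h (n = 5), with 1 RPKM added to each level. Circles are experiment 1, triangles experiment 2 and bars the mean and SD, and the vertical axes differ between panels. The groups are apart for both ratios to Cxcl10 and overlap for Cxcl9 to Cxcl11.

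At 2 weeks none of the members was called against naïve retinas. Cxcl10 ran from 0 to 50.7 RPKM with a median of 5.65, and 1 of 7 retinas lay above every naïve retina. Cxcl9 ran from 0 to 6.14 RPKM with a median of 0.165, and 3 of 7 retinas lay above every naïve retina, at 6.14, 2.20 and 1.43 RPKM. Cxcl11 was listed at 0 in 5 of 7 and reached 0.263 RPKM. The estimates were 0.54 for Cxcl10 (95% CI -1.001 to 2.09), 0.82 for Cxcl9 (-0.03 to 1.68) and 0.00 for Cxcl11 (-0.45 to 0.45), each with a limma adjusted p of 1 (unadjusted 0.479, 0.0595 and 0.987). For Cxcl9 and Cxcl10 these intervals include changes of 2-fold and more. Only 1 of 13164 genes was called in either direction (0.0076%), and 378 had an unadjusted p under 0.05.

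A comparison of 18 h with 2 weeks was added after the values were seen. Cxcl10 was higher at 18 h by 3.41 log2 units (SE 0.90, limma adjusted p = 0.0312), beside 204 of 13164 genes called higher (1.55%). The call was lost without any 1 of 4 retinas at 18 h (1, 2, 3 or 5) or 3 at 2 weeks (2, 4 or 6), at changes of 2.98 to 3.37 and adjusted p from 0.0554 to 0.0847. It was also lost with 0.1 RPKM added (adjusted p = 0.141), no filter (0.117), the replicate block (0.0612), experiment 1 (0.379) or 2 (0.221) alone, untransformed values (0.863) and rescaling (0.0581). Cxcl9 (0.49, adjusted p = 0.708) and Cxcl11 (0.41, adjusted p = 0.505) were not called.

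The retinas came from 2 experiments, with 6 and 4 naïve retinas, 3 and 3 at 4 h, 4 and 1 at 18 h, and 4 and 3 at 2 weeks. The 4 h increase was called in each experiment taken alone for all members. It was 8.47 and 8.50 log2 units for Cxcl10, 3.07 and 2.503 for Cxcl11, and 2.34 and 2.29 for Cxcl9, in experiments 1 and 2. The difference between these responses was 0.03 for Cxcl10 (95% CI -3.46 to 3.53), -0.57 for Cxcl11 (-1.53 to 0.40) and -0.06 for Cxcl9 (-1.96 to 1.85), each with a limma adjusted p of 1. None of the 3 was called, beside 13 of 13164 genes (0.0988%), and all 3 intervals leave room for differences of more than 2-fold. Between 4 h and 18 h Cxcl10 differed by -4.54 and -4.14 and Cxcl11 by -2.67 and -1.86 in experiments 1 and 2, where experiment 2 had 1 retina at 18 h and gives no replicate check.

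Markers of T cells and NK cells, the cells that CXCR3 ligands attract, appeared in the sorted cells at 18 h. Their summed level was 14.1, 79.6, 28.2, 362 and 77.6 RPKM in the 5 retinas, against 0.0261 to 2.22 in naïve, 0.0206 to 5.68 at 4 h and 0.713 to 14.4 at 2 weeks. Of the 18 markers, 12 reached 1 RPKM in some 18 h retina and none was listed at 0 in all 5. Only 2 of them, Nkg7 and Lck, passed the filter. Nkg7, a granule protein of cytotoxic lymphocytes, averaged 30.3 ± 33.3 RPKM at 18 h, was listed at 0 in every naïve and 4 h retina, and passed the filter only through the 18 h retinas, so its call there was fixed by the filter. Lck, a kinase of the T cell receptor, was called higher at 4 h (1.39, limma adjusted p = 0.0021) and not at 18 h (0.65, adjusted p = 0.284). Lck reached at most 0.416 RPKM in naïve retinas and 0.454 at 2 weeks, and averaged 0.877 at 18 h. It could not have passed the filter without the 4 h retinas, so its 4 h call is no separate support. Gzma, a granule protease of the same cells, averaged 63.1 ± 100.2 RPKM at 18 h and was listed at 0 in every naïve and 4 h retina. Gzma and Nkg7 together made up most of the mean 18 h sum. The T cell markers Trac, Cd8a, Cd3d and Cd3e averaged 4.45, 2.17, 0.572 and 0.134 RPKM at 18 h, each above its naïve mean. Cd4 and Cd28 went the other way, with 0.0132 and 0.0857 RPKM at 18 h against 0.0770 and 0.414 in naïve retinas.

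The 18 h retina with the most lymphocyte marker RNA, retina 4 at 362 RPKM, had the least Cxcl9 and Cxcl10 and no listed Cxcl11. It also had the lowest 18 h sums of Müller glia and astrocyte (157 RPKM), endothelial (0.239), neutrophil (2.86) and rod photoreceptor (1826) markers. Its microglia marker sum (4207) lay inside the range of the group. A link of the ligands to any of these lists would rest on this single retina and was not tested. Leaving retina 4 out gave an 18 h change of 4.38 for Cxcl10 (limma adjusted p = 0.00243), against 3.95 with it. Monocyte and macrophage markers summed to 155 to 326 RPKM at 18 h, 11.2 to 182 at 4 h and 14.0 to 77.2 in naïve retinas, with 8 of 12 reaching 1 RPKM at 18 h. Most of the 18 h sum was Ms4a4c (mean 227 RPKM), while the monocyte markers Ccr2 and Ly6c2 averaged 0.305 and 1.26 RPKM and F13a1 averaged 10.4 in naïve and 1.41 at 18 h. Neutrophil markers summed to 2.86 to 28.8 RPKM at 18 h and 5.60 to 83.0 in naïve, where Csf3r made up nearly the whole sum, and 5 of them reached 1 RPKM at 18 h against 1 in naïve. S100a8 and S100a9, which neutrophils carry in abundance, were listed at 0 in every naïve retina and averaged 2.59 and 1.74 RPKM at 18 h. The endothelial markers stayed between 0.174 and 4.11 in all groups. How much of the ligand mRNA at 18 h came from other cell types was not tested. In pooled cells, fewer cells of a type and less RNA per cell cannot be told apart.

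**Figure D4:**
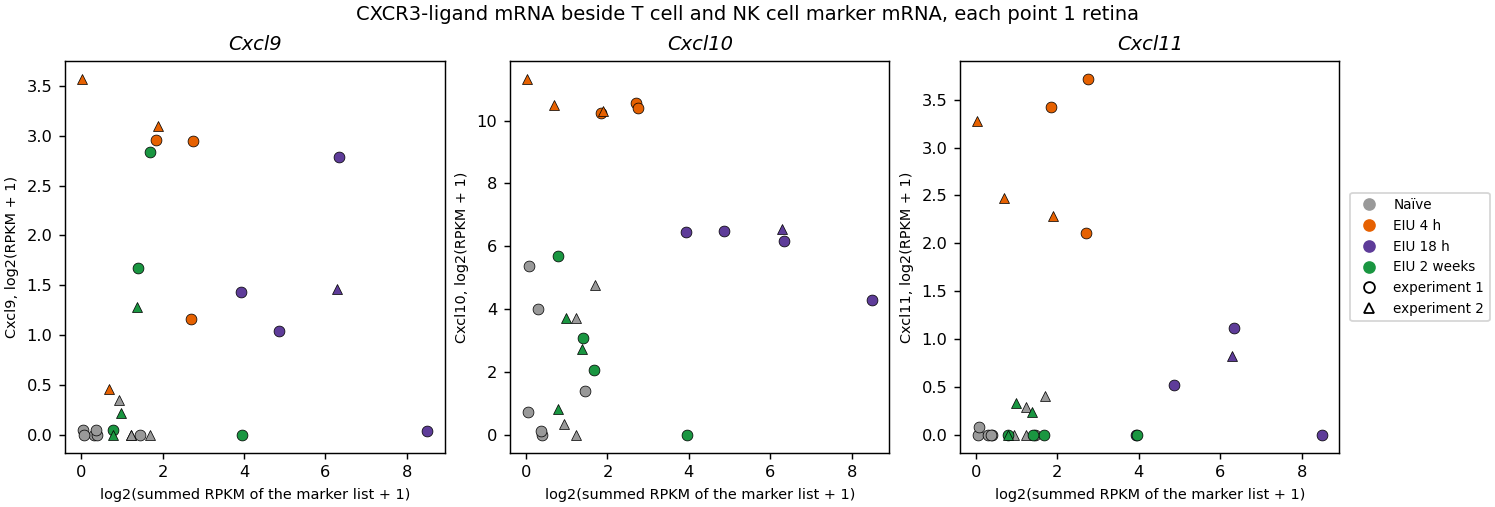
Level of each ligand against the summed level of 18 T cell and NK cell markers in every retina, both as log2(RPKM + 1), coloured by group and with circles for experiment 1 and triangles for experiment 2. The 4 h retinas combine high Cxcl10 and Cxcl11 values with marker sums of at most 5.68 RPKM. Their Cxcl9 runs from 0.372 to 10.9 RPKM and overlaps the 18 h and 2 week retinas. The 18 h retina at 362 RPKM has the lowest Cxcl9 and Cxcl10 of its group and Cxcl11 at 0. It also has the lowest Müller glia and astrocyte, endothelial, neutrophil and rod photoreceptor marker sums of that group.

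The receptor itself was scarce. Cxcr3, the receptor shared by the 3 ligands, was below the filter, with 0 to 1.22 RPKM in naïve retinas, 0 to 3.17 at 4 h, 0 to 0.410 at 18 h and 0 to 1.30 at 2 weeks. It was listed at 0 in 4 of 5 retinas at 18 h. Ackr3, an atypical receptor that takes up CXCL11, Dpp4, the peptidase that trims these chemokines, and Mmp9, a protease that cleaves them, were also below the filter, with highest group means of 0.0985, 0.0589 and 0.454 RPKM. Mmp12, another chemokine-cleaving protease, averaged 2.40 ± 3.19 RPKM at 4 h and 0.379 ± 0.856 in naïve retinas (log2 difference 1.00, limma adjusted p = 0.141). Ackr1, which binds many inflammatory chemokines without signalling, differed by 0.64 (adjusted p = 0.33). None of the 2 tested genes of this list was called by limma (1 at an unadjusted p under 0.05 at 4 h), and the ligand mRNAs rose in cells with little receptor mRNA.

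Upstream of the ligands, the list for the LPS receptor and its TRIF-IRF3 branch changed in both directions. Of 14 tested genes 3 rose and 2 fell at 4 h (6 rose without 4 h retina 2), beside 3.68% and 4.39% of all genes, with a median change of 0.62 log2 units against -0.11 over all genes. Cd14, the co-receptor that hands LPS to TLR4, rose by 3.82 (limma adjusted p = 6.42e-08) and Ikbke, a kinase that activates IRF3, rose by 1.52 (adjusted p = 0.000245). Ikbke reached at most 0.0125 RPKM in naïve retinas and 0.885 at 2 weeks, so it passed the filter only through the 4 h and 18 h retinas. Its 4 h call, counted among the 3, and its 18 h call are therefore no separate support. Tlr4 fell by 2.15 (adjusted p = 0.000966), from 7.60 ± 3.62 to 0.826 ± 0.670 RPKM. At 18 h Ikbke alone was called (1.20, adjusted p = 0.0111), and no gene was without 18 h retina 1 or 3, in either experiment alone or under 4 other settings. Tlr4 was back at 7.59 ± 4.81 RPKM, and the list's median was -0.03 against -0.08. The counts and medians of every list below stand beside the same values for all genes. These are 3.68% called higher at 4 h and 2.84% at 18 h, with medians of -0.11 and -0.08.

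NF-kappa B genes moved with Cxcl10 at 4 h and were no longer called at 18 h. At 4 h 8 of 9 rose (median 3.18), among them Nfkbia, the inhibitor that NF-kappa B itself induces (4.82, limma adjusted p = 1.31e-08), and Nfkbiz, a nuclear cofactor (4.73, adjusted p = 3.01e-08). At 18 h limma called 0 of 9 (2 at an unadjusted p under 0.05, median -0.03), whereas Cxcl10 still was. The same 9 genes included 8 called lower between 4 h and 18 h (median -3.41), beside 2.51% of all genes.

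Among interferons, their receptors and the cytokines that induce them, 4 of 9 tested genes rose at 4 h and 2 at 18 h (medians 0.74 and -0.04). Most of those called were not interferons. Il12b, a subunit of the interferon-gamma-inducing cytokine interleukin 12, rose by 12.50 (limma adjusted p = 3.09e-18), and Tnf, a cytokine that acts through NF-kappa B, by 9.26 (adjusted p = 4.57e-13). Both were still called at 18 h (4.27 and 3.62, adjusted p = 1.22e-06 and 0.000261). Ifnb1, the type I interferon that LPS induces, was at 65.2, 9.71 and 26.0 RPKM at 4 h in experiment 1 and at 522, 269 and 307 in experiment 2. It reached 19.3 RPKM in a naïve retina, above the lowest 4 h value, and was listed at 0 in all 5 retinas at 18 h. Ifnb1 could not have passed the filter without the 4 h retinas. Its 4 h call, counted among the 4 above, is therefore no separate support. Ifng, which encodes interferon-gamma, was listed at 0 in all 28 retinas, the 18 h ones with lymphocyte markers included.

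The transduction list (JAK, STAT and IRF genes) had 2 of 12 called higher at 4 h (4 without naïve retina 1) and 1 at 18 h (medians 0.65 and -0.01). Irf1, a factor that binds interferon response elements, rose at 4 h by 2.71 (limma adjusted p = 0.00426) and so did Jak2, a receptor kinase (2.24, adjusted p = 0.00372). Irf7, which amplifies type I interferon, was called at 18 h (3.05, adjusted p = 0.00596). Of 7 feedback inhibitors 3 rose at 4 h and 1 at 18 h (medians 1.73 and 1.10), and the 18 h count was 2 without any 1 of naïve retinas 7 or 9, 4 h retinas 2 or 6, 18 h retina 4 or 2 week retina 1. Socs3, a suppressor of cytokine signalling, rose at 4 h (5.66, adjusted p = 2.82e-08), and Isg15, a ubiquitin-like modifier, at both times (4.88 and 3.55, adjusted p = 1.1e-06 and 0.000851).

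Interferon targets other than the ligands were called at both times. Of 21 interferon-gamma-response genes 7 rose at 4 h and 5 at 18 h, with medians of 1.19 and 0.77. Gbp2, an interferon-inducible GTPase, rose by 4.90 and 3.61 (limma adjusted p = 2.49e-07 and 0.000268), Gbp5, of the same family, by 3.87 at 4 h (adjusted p = 1.47e-09), and Cd274, the checkpoint ligand PD-L1, by 2.90 at 18 h (adjusted p = 0.00951). Gbp5 stayed at or below 1.14 RPKM outside 4 h and could not have passed the filter without the 4 h retinas. Its call, counted among the 7, is therefore no separate support. The 18 h count ran from 0 with experiment 2 alone to 8 with array quality weights. Of 24 type I interferon-stimulated genes 9 rose at 4 h and 9 at 18 h, with medians of 1.41 and 1.85. Ifit1, which binds foreign RNA, rose by 5.91 and 4.21 (adjusted p = 3.96e-07 and 0.000537), Oasl1, a sensor-like protein, by 3.98 at 4 h (adjusted p = 1e-07), and Zbp1, a nucleic acid sensor, by 3.07 at 18 h (adjusted p = 0.000471). Cxcl11 and Cxcl10 fell between 4 h and 18 h. In that comparison 2 of the 24 type I genes and 1 of the 21 interferon-gamma genes were called lower, beside 2.51% of all genes. In the other direction 1 and 2 of them were called higher, beside 384 of all 13164 genes. The interferon-gamma gene called lower was Gbp5, which, like Cxcl11, could not have passed the filter without the 4 h retinas.

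**Figure D5:**
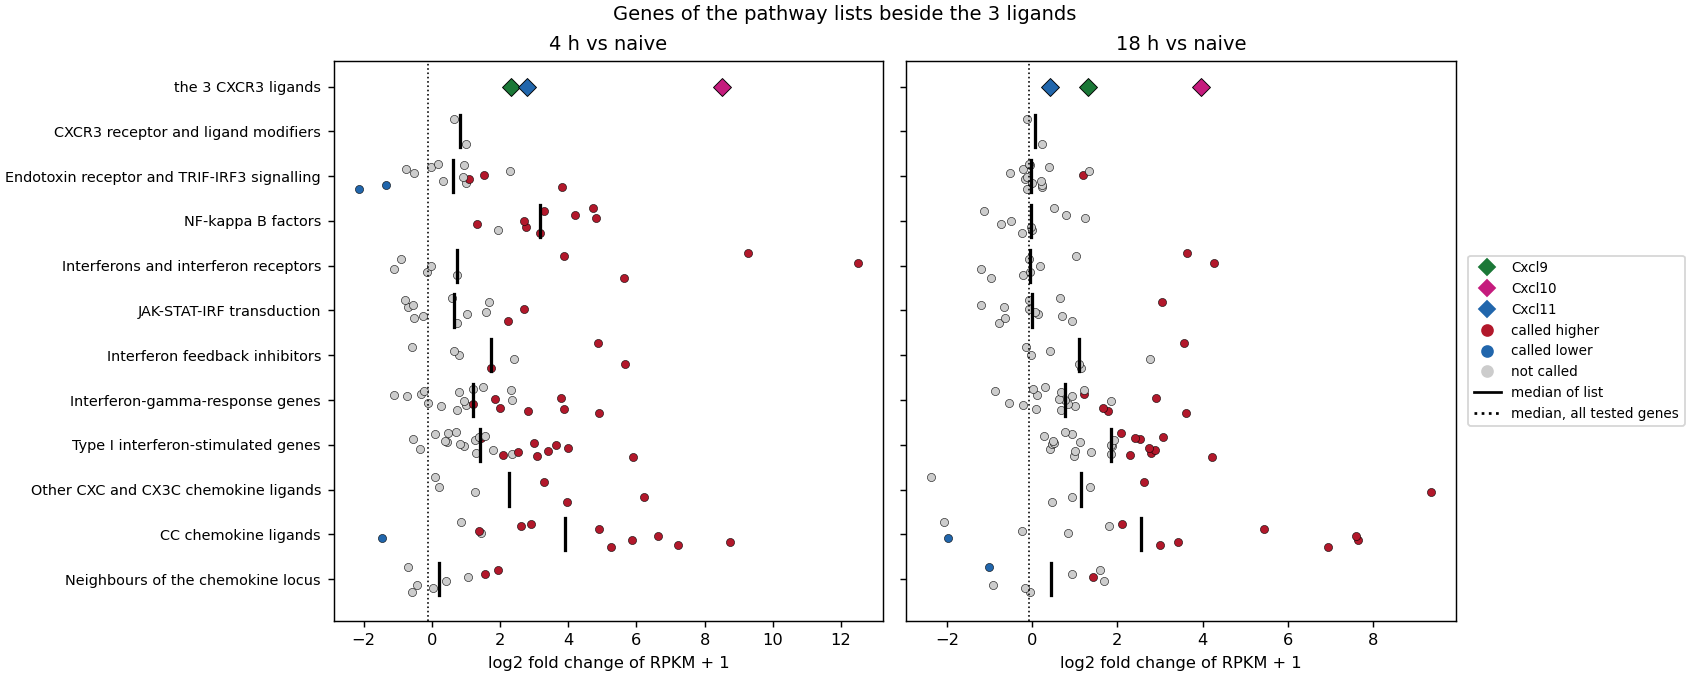
Log2 fold change of RPKM + 1 for the 3 ligands (diamonds) and the tested genes of each pathway list (circles) at 4 h and at 18 h against naïve, red where called higher, blue where called lower and grey where not called. Black bars are list medians and the dotted line is the median of all 13164 tested genes. NF-kappa B genes lie at a median of 3.18 at 4 h and of -0.03 at 18 h, while type I interferon-stimulated genes lie at 1.41 and 1.85.

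Other chemokines gave patterns both like and unlike that of the CXCR3 ligands. Of 6 tested CXC and CX3C ligands 3 rose at 4 h and 2 at 18 h. Cxcl1 and Cxcl2, which attract neutrophils, rose at 4 h (3.97 and 6.21, limma adjusted p = 3.84e-06 and 7.37e-09). Outside 4 h Cxcl1 stayed at or below 0.946 RPKM, and neither gene could have passed the filter without the 4 h retinas. Their 4 h calls, counted among the 3, are therefore no separate support. At 18 h they gave 0.47 and 0.94 (limma adjusted p = 0.736 and 0.486). Cxcl13, a B cell attractant, went the other way, with 5.11 ± 7.58 RPKM at 4 h and 1189 ± 559 at 18 h (9.35, adjusted p = 4.87e-11). Cxcl16, the ligand of CXCR6, rose at both times (3.29 and 2.63, adjusted p = 4.23e-05 and 0.00337). At 18 h Cxcl13 had the higher mean, against 72.0 ± 31.0 RPKM for Cxcl10.

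Of 12 tested CC ligands 9 rose at 4 h and 7 at 18 h, and Ccl6 fell at both times (1.47 and 1.98 lower, limma adjusted p = 0.000198 and 1.73e-05). Ccl3 and Ccl4 rose most at 4 h (7.21 and 8.73, adjusted p = 4.29e-13 and 1.35e-10) and, like Cxcl10, dropped by 18 h (by 4.21 and 5.32, adjusted p = 1.57e-06 and 6.04e-05). Ccl5, another T cell attractant, averaged 1489 ± 1162 RPKM at 4 h and 4316 ± 1933 at 18 h, and was 7.64 above naïve at 18 h (adjusted p = 4.06e-12). Ccl7, a monocyte attractant, was 7.59 above naïve at that time (adjusted p = 1.66e-07). Mean Cxcl10 at 4 h (1556 ± 505 RPKM) lay within 1 SD of that of Ccl5, whereas at 18 h the mean of Ccl5 was much the higher.

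Genes around the cluster did not all follow it. Of 8 neighbours 2 were called higher at 4 h, beside 3.68% of all genes. They were Art3 (an ADP-ribosyltransferase family gene, 1.55, limma adjusted p = 1.46e-05) and Nup54 (a nuclear pore protein, 1.93, adjusted p = 0.0269). Art3 could not have passed the filter without the 4 h retinas, so its call is no separate support. At 18 h Sdad1 was called higher (1.43, limma adjusted p = 0.0298) and Scarb2, a lysosomal membrane protein, lower (-1.02, adjusted p = 0.043). Over all genes 2.84% were called higher at 18 h and 244 of 13164 lower. G3bp2, Uso1, Ppef2 and Naaa were not called at either time, with changes from -0.93 to 1.67. Art3 runs on the plus strand across Cxcl10 and Cxcl11, and 133 bases of its exons overlap those of Cxcl10 (5.91% of the Cxcl10 exon bases). It measured 0.839 to 2.82 RPKM at 4 h against 0 to 0.530 in naïve retinas. Since the library kit is not stated to keep the strand, reads of the 2 genes in that overlap cannot be told apart. Gm2673, a processed pseudogene on the plus strand, covers 41.7% of the Cxcl11 exon bases and was listed at 0 in all 4 h retinas, so the Cxcl11 values rest on how reads were divided between them.

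Across the 28 retinas the log2(RPKM + 1) levels of the members were correlated, with Pearson's r of 0.85 for Cxcl10 and Cxcl11, 0.71 for Cxcl9 and Cxcl11 and 0.64 for Cxcl9 and Cxcl10. The points share the 4 groups and their libraries, and r is given as a description. The tested genes most like Cxcl10 were Il12b (r = 0.90), Ccl3 (0.90), Tlr2 (0.90), Cd69 (0.89) and Mir155hg (0.88), and those most like Cxcl11 were Gm45184 (0.96), Exoc3l4 (0.95), Gm6377 (0.94), Cd40 (0.94) and 9330198N18Rik (0.94). Those most like Cxcl9 were Gm43569 (0.85), Mir155hg (0.77), Gbp6 (0.77), Rsad2 (0.76) and Cd69 (0.76). Mir155hg, the host transcript of microRNA 155, and Cd69, an early activation antigen, were among the 5 most like both Cxcl9 and Cxcl10. Rsad2 and Gbp6, both interferon-inducible, appeared for Cxcl9 alone.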

How the data were processed

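mRNA was measured in 28 samples of sorted retinal microglia, each from 1 retina. The authors amplified it with SMART-Seq v4, made Nextera XT libraries, sequenced single-end reads of 75 nt, aligned them to mm10 with STAR 2.5.3a and quantified Ensembl 89 transcripts in Partek by expectation-maximisation. The deposited values are RPKM per gene, with no counts, so no count test was run. The expectation-maximisation step divides reads that fit several genes. Tables of the authors' own 4 h and 18 h comparisons hold fold changes and p-values and were not used.

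Groups followed the sample labels. Genes with RPKM of at least 1 in at least 5 retinas (13164 of 40021) were tested on log2(RPKM + 1) with limma 3.58.1 (R 4.3.3), using all 28 retinas in 4 groups and a variance that follows the mean, and p-values were adjusted by the Benjamini-Hochberg method. A call needed an adjusted p of 0.05 or less and a fold change of at least 2. The comparisons with naïve share the naïve retinas. Differences between experiments were interaction terms, called on adjusted p alone. Ligand ratios were tested with a two-sided exact permutation test (scipy 1.17.1). Both tests were tested on simulated data. Positions came from GENCODE vM21 and promoters from RefSeq, where 2 of the 3 members matched.

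The members, gene lists and tests were chosen with earlier results of these data known. Named genes were the members, all genes of the receptor and neighbour lists, in each other pathway list, at each of 4 h and 18 h, the 2 called genes that rose most and the 1 that fell most, and the 5 genes most correlated with each member. Ifnb1, Ifng, the single cell type markers, and values of listed genes at the other times, were added after the values were seen. Alternatives were the pseudocount (0.1 or 10), the filter, experiment or eye side as covariate, a replicate block, fewer retinas, array weights, untransformed values, quantile normalisation, rescaling to the same summed RPKM, no variance trend and leaving out each retina.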

Additional observations from a re-analysis of the deposited data

Results flagged for a closer look

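In 4 of the 12 member-by-group sets of values, 1 retina stood apart from the others by Dixon's criterion. Chance meets it in about 1 of 20 sets of normally distributed values. That rate does not carry over to these RPKM, where for example naïve Cxcl9 was listed at 0 in 7 of 10 retinas. Naïve retina 10 had 0.279 RPKM of Cxcl9, where the other naïve retinas had at most 0.0350. At 4 h retina 4 had 2566 RPKM of Cxcl10, and the next highest had 1495; it was also the library with the most alignments (19700000). At 2 weeks retina 2 had 6.14 RPKM of Cxcl9, with 2.20 in the next highest. The same retina had the highest Müller glia and astrocyte marker sum of all retinas (10140 RPKM). At 2 weeks retina 1 had 50.7 RPKM of Cxcl10, with 12.03 in the next highest. The part of depth, or of RNA from other retinal cells, in these values was not tested.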

How the results depend on the processing

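The 4 h increase of Cxcl10 was called under every alternative run, and those of Cxcl9 and Cxcl11 under all but 10 RPKM added, where they were under 2-fold (0.59 and 0.73), as was the 18 h against 4 h difference of Cxcl11 (-0.68). That setting also gave 241 genes up at 4 h, 171 down between 4 h and 18 h, and a Cxcl9 to Cxcl11 ratio difference of 0.34. With 0.1 added, Cxcl9 was called at 18 h (3.36, limma adjusted p = 0.0344), Cxcl10 was not called between 4 h and 18 h (-4.58, adjusted p = 0.071), and the Cxcl11 to Cxcl10 difference was 0.43. Cxcl9 at 18 h was also called with only the groups compared (1.31, adjusted p = 0.0169) and with array weights (1.46, adjusted p = 0.00685), and without 1 retina it ran from 0.95 to 1.64. Cxcl10 at 18 h was not called in experiment 1 alone (3.92), experiment 2 alone (4.36) or untransformed (2.78 on the log2 scale of the means, adjusted p = 0.828), nor was its fall in experiment 1 (-4.54) or 2 (-4.14).

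Experiment 1 alone gave 302 genes up at 4 h, 154 up at 18 h and 138 down between them, and ratio differences of 3.51, 1.87 and 1.64 (exact permutation adjusted p = 0.0571 each, the smallest this design allows). Genes up at 18 h numbered 107 in experiment 2, 779 with array weights (768 down between 4 h and 18 h), 226 after rescaling, and 241 to 450 without 1 retina (241 without 18 h retina 1). Rescaling moved the median of all genes from -0.11 to -0.28 at 4 h and from -0.08 to -0.26 at 18 h. Leaving out 1 retina gave ratio differences of 3.17 to 3.74 (Cxcl9 to Cxcl10), 1.87 to 2.41 (Cxcl11 to Cxcl10) and 1.08 to 1.64 (Cxcl9 to Cxcl11). A filter at 5 RPKM removed Cxcl11. The causes were not tested.

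Values that were not called changed sign in places. Cxcl11 at 2 weeks was -0.0013 with eye side, -0.014 in experiment 1, -0.033 with array weights, -0.11 after quantile normalisation and -0.039 to 0.040 without 1 retina. The experiment difference at 4 h was, for Cxcl9, 0.082 with 10 added, 1.30 RPKM untransformed, 0.20 after quantile normalisation and -0.65 to 0.90 without 1 retina, and for Cxcl10 -0.13 with array weights, -0.12 after quantile normalisation, -0.029 after rescaling and -0.70 to 0.89 without 1 retina. At 2 weeks it was -0.000219 for Cxcl11 with array weights, -0.043 to 0.13 without 1 retina, and -1.47 to 0.43 for Cxcl10.

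Replicate numbers did not pair the retinas: over 34 same-numbered pairs of different groups the median correlation of deviations was 0.0352, and 15 exceeded 0.1. With the replicate block the ratio differences were 3.17, 2.10 and 1.08 (exact permutation adjusted p = 0.0938, 0.0938 and 0.25), where the smallest unadjusted p is 0.0625. The block turned the experiment differences of Cxcl9 (1.57 at 4 h, 0.42 at 2 weeks), Cxcl10 (-1.58 at 4 h) and Cxcl11 (-0.050 at 2 weeks).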
